A study of Mus musculus with 6 samples.

Results

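Nuclear receptors are transcription factors that a small fat-soluble molecule can switch on, and 46 of their mouse genes were followed here together with Gper1, a membrane receptor for estrogen, and Greb1, a gene that estrogen switches on in breast cancer cells. These 48 genes were picked by symbol from the mRNA table. Of them, 38 had a row among the 22127 genes listed, and 34 had at least 10 reads in both libraries together and were compared, of 16870 such genes in all. The table held 1 library of GC-2 spd(ts) cells, a mouse line whose label gives spermatocytes as its source, grown for 48 h with 120 µM bisphenol A (BPA), a plastic monomer that binds estrogen receptors weakly, in medium holding 10% serum, after 12 h in serum-free medium. It was set against 1 library of the same line with the same times and serum, 0.1% dimethyl sulfoxide (DMSO), the solvent, and 0 µM BPA. The DMSO content of the BPA culture is not given in the labels. Aliquots of each culture's RNA also gave a library of circular RNA (circRNA) and one of microRNA (miRNA). With 1 library per group no difference has a replicate check, so no test across conditions was made, and each interval below is a 95% interval of counting error only.

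A nuclear receptor carries a zinc-finger domain that binds DNA and a second domain that holds the ligand. Steroid receptors wait in a chaperone complex and act as homodimers once the hormone binds, whereas receptors for retinoic acid, thyroid hormone, vitamin D, fatty acids, oxysterols and bile acids pair with a retinoid X receptor, and the orphan receptors have no agreed natural hormone. BPA is known as a weak ligand of the estrogen receptors ERα and ERβ, as a strong ligand of the estrogen-related receptor ERRγ and as an agonist of the membrane receptor GPER1, while the pregnane X receptor PXR responds to it in human cells.

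The mRNA libraries held 33071378 reads with BPA and 32312872 reads in the control, so that 0 reads allows a level of up to 0.0907 CPM (reads scaled to a library total of 1000000) with BPA and 0.0928 CPM in the control. Of 12 markers of spermatocytes, 3 had a row and none reached 10 reads in both libraries together: Ddx4 had 9 reads with BPA and 0 in the control, Sycp3 had 0 with BPA and 6 in the control, and Meiob had 0 with BPA and 3 in the control. Summed, these markers came to 0.272 CPM with BPA and 0.279 in the control, so the label's cell type is not seen in its defining markers. Of 8 fibroblast and peritubular markers, 6 were compared, and all 6 were lower with BPA, against 48.1% of all genes compared. The summed level of the list was 3099.69 CPM in the BPA library and 5725.33 in the control library. It was led by the collagen gene Col1a1, with 39365 reads with BPA and 79234 in the control. Myh11, with under 10 reads, went the other way, with 9 reads with BPA and 0 in the control, and Thy1 had no row. Of 8 Sertoli cell markers, 5 were compared and came to 73.1 CPM with BPA and 73.9 in the control, a sum carried by Gata4 with 1795 reads with BPA and 1959 in the control. The other 4 had ratios above 0, and 2 of the 5 were at least 2-fold higher (40%, against 6.88% of all genes compared). These were low in reads: Amh had 33 reads with BPA and 10 in the control, and Wt1 had 26 reads with BPA and 8 in the control. Of 6 Leydig cell markers, Star alone was compared, at 90 reads with BPA and 69 in the control, and Cyp11a1, Cyp17a1, Hsd3b1 and Lhcgr had no row. Of 6 macrophage and leukocyte markers, 4 were compared, and the summed level was 8.29 CPM with BPA and 5.08 in the control. This sum was carried by Cd68, with 236 reads with BPA and 147 in the control. Cd74 had 22 reads with BPA and 2 in the control, Lyz2 had 11 with BPA and 5 in the control, and Csf1r had 5 with BPA and 7 in the control. Ptprc had 0 reads with BPA and 3 in the control, and Adgre1 had no row. The part of these markers in the receptor values below was not tested. In such bulk RNA, fewer cells of a type and less RNA per cell cannot be told apart.

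Among the receptors known to bind BPA, mRNA of ERα was present at a low level, ERβ was near the limit of detection and ERRγ had no row. Esr1, which encodes ERα (chromosome 10, 4611593 to 5005614, plus strand, GRCm38), had 232 reads in the BPA library, against 302 in the control library. Per length this was 0.514 reads per kilobase of exon and per 1000000 reads of the library (RPKM) with BPA (0.450 to 0.584) and 0.684 RPKM in the control (0.609 to 0.766), which placed Esr1 at rank 25 of the 38 genes with BPA and at rank 24 in the control. Its log2 ratio of BPA over control, taken on the authors' scaled values plus a pseudocount of 1, was -0.49 (-0.75 to -0.24), so its reads were lower with BPA by more than counting error. Esr2, which encodes ERβ, had 5 reads with BPA and 0 in the control, where 3 reads would be 0.0276 RPKM, and its interval included equality, so no difference was detectable at this depth. Gper1 had 10 reads with BPA and 17 in the control, a log2 ratio of -0.81 (-2.17 to 0.33), which includes equality as well.

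The estrogen-related receptors bind DNA sites related to those of the estrogen receptors, without estrogen. Esrra, whose product ERRα drives genes of mitochondrial metabolism, had 860 reads with BPA and 629 in the control, or 5.93 RPKM with BPA (5.54 to 6.34) and 4.44 RPKM in the control (4.10 to 4.80), and a log2 ratio of 0.34 (0.19 to 0.49). Per length Esrra thus stood above Esr1 in both libraries. Exons of Esrra overlap those of Trmt112 on the opposite strand, which had 1642 reads with BPA and 1664 in the control, and since the use of strand in counting is not given, reads of the overlap cannot be told apart. Esrrb, a receptor of embryonic stem cells, had 4 reads with BPA and 0 in the control. The gene of ERRγ, Esrrg, was among 10 genes that had no row in the table used here, in which every row held at least 1 read; the others were Pgr, Rxrg, Nr1i2, Nr2e1, Nr2e3, Hnf4a, Hnf4g, Nr5a2 and Nr0b1. Nr1i2 encodes PXR and Pgr the progesterone receptor. The plot of levels by gene shows all 38 genes with a row.

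**Figure D1:**
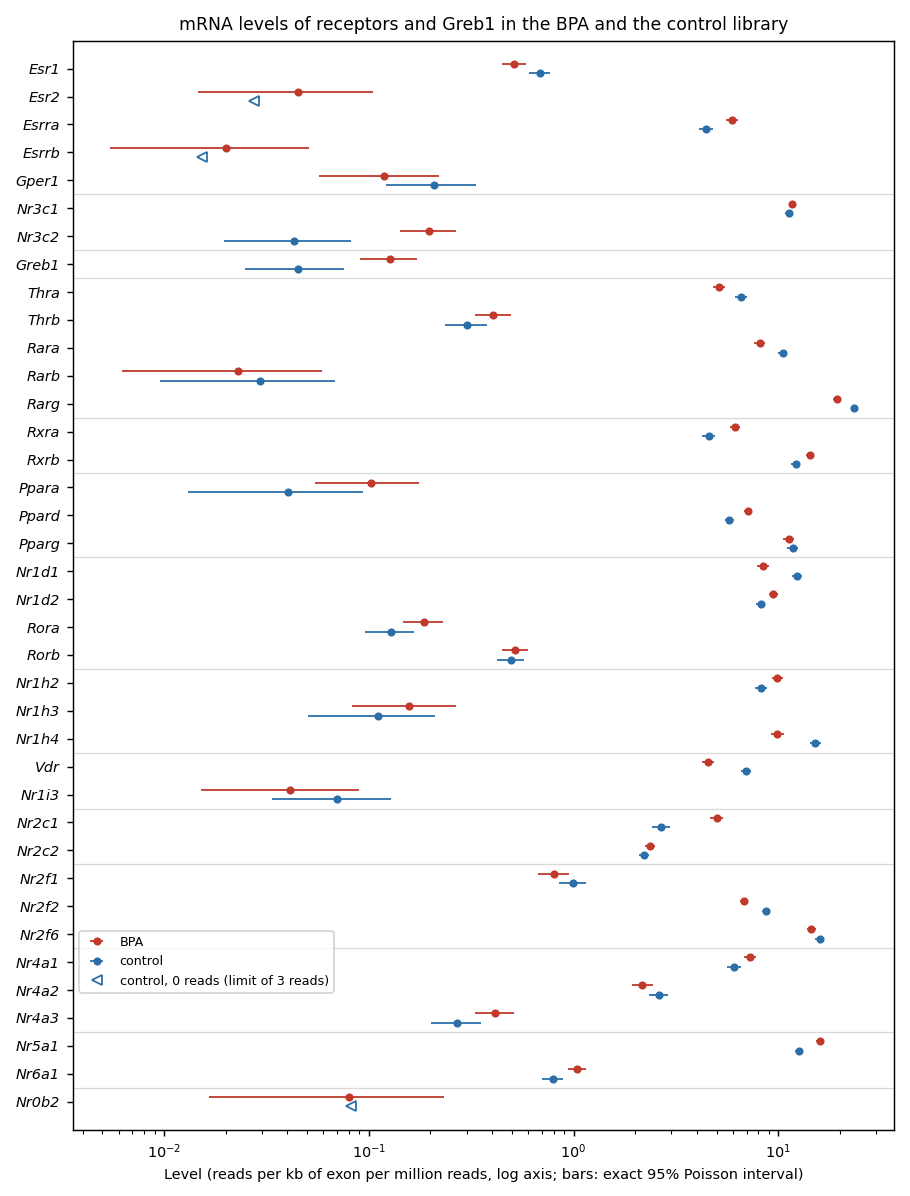
Level of each gene in reads per kilobase of exon and per 1000000 reads (RPKM), on a log axis, in the BPA library (red) and the control library (blue), with exact 95% Poisson intervals, grouped by receptor family. Rarg was highest in both libraries, at 19.3 RPKM with BPA and 23.4 RPKM in the control, and open triangles mark the limit that 0 reads allows for Esr2, Esrrb and Nr0b2 in the control.

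Of the 34 genes compared, 3 were at least 2-fold higher with BPA (8.82%), against 6.88% of all genes compared, and 0 were at least 2-fold lower, against 4.61% of all genes. Those 3 were Nr3c2, Greb1 and Ppara, and each had at most 42 reads in either library. Nr3c2 encodes the mineralocorticoid receptor, which binds aldosterone and glucocorticoids (chromosome 8, 76899442 to 77245012, plus strand). Nr3c2 had 42 reads with BPA and 9 in the control, a log2 ratio of 2.0 (1.05 to 3.34), and its level was 0.196 RPKM with BPA and 0.0430 RPKM in the control. Greb1 (chromosome 12, 16670615 to 16800886, minus strand) had 40 reads with BPA and 14 in the control, a log2 ratio of 1.34 (0.49 to 2.40). The intervals of Nr3c2 and Greb1 lay above equality. Exons of both overlap those of a noncoding gene on the opposite strand, Gm10649 for Nr3c2 and Gm48140 for Greb1. Neither noncoding gene had a row, and as the use of strand in counting is not given, reads of these overlaps cannot be told apart. Ppara, the fatty acid sensor of liver, had 13 reads with BPA and 5 in the control, and its log2 ratio of 1.12 (-0.31 to 3.11) did not stand clear of counting error. The 250 bases before the first RefSeq start of Greb1 and of Nr3c2 (GRCm38.p6) are shown because these genes had the highest ratios of the set with intervals above equality.
Greb1, chr12:16800887-16801136, minus strand: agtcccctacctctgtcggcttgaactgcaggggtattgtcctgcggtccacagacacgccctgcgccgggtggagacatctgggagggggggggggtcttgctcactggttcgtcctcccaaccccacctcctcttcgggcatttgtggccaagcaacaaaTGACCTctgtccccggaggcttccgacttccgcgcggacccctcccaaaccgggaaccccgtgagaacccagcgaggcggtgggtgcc
Nr3c2, chr8:76902080-76902329, plus strand: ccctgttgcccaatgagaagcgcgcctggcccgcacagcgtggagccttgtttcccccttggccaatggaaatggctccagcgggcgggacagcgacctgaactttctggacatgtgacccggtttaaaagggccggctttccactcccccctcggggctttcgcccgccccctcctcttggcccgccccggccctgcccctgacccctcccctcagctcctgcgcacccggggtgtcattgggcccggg
Capitals mark TGACCT, the other strand of the hexamer AGGTCA that many nuclear receptors bind, which lies 88 bases before the Greb1 start; the Nr3c2 stretch holds no such hexamer on either strand. Over 32851 RefSeq windows, which run 250 bases before to 50 after a start, AGGTCA was found on either strand in 16.3%, and it was in 13 of the 66 windows of 44 of the genes followed (19.7%). The full estrogen response element, searched as GGTCA, 3 free bases and TGACC, was in 0.0700% of all windows and in 0 of those 66. A match is a description of letters, and AGGTCA is part of several longer elements.

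At a limit of 1.5-fold, 4 of the 34 genes were higher with BPA (11.8%, against 13.3% of all genes) and 5 were lower (14.7%, against 10.2% of all genes). Counting error is narrow at high reads, so many genes lay apart from equality by that measure: the interval was above equality for 13 of 34 (38.2%, against 28.2% of all genes) and below it for 12 (35.3%, against 26.5%), and it included equality for 9. The median log2 ratio was 0.07 over the 34 genes and 0.02 over all genes, with 18 genes above 0 and 16 below. Of all genes compared, 51.9% were above 0 and 48.1% below. Among the 30 genes with at least 50 reads in both libraries together, 2 were 2-fold higher (6.67%, against 3.25% of all such genes) and 0 were 2-fold lower, against 2.05%. Among the 20 genes with at least 1000 reads in both libraries together, 0 were 2-fold higher, against 1.36% of all such genes, and 0 were 2-fold lower, against 0.985%. In that class Nr2c1 was 1.5-fold higher (1 of 20, 5%, against 3.93% of all such genes), and Nr1d1, Vdr and Nr1h4 were 1.5-fold lower (3 of 20, 15%, against 4.2%). The plot of ratios by gene and the plot of all genes show these genes beside the rest.

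**Figure D2:**
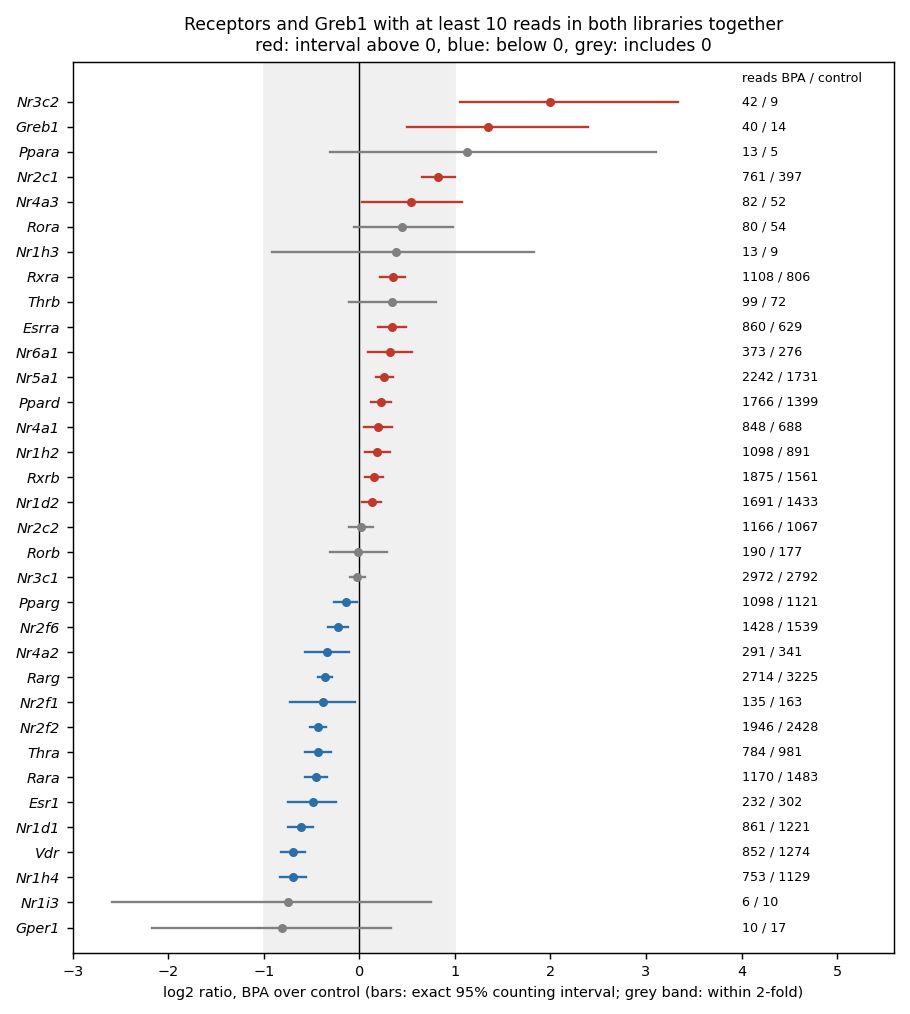
Log2 ratio of BPA over control for the 34 genes with at least 10 reads in both libraries together, with exact 95% intervals of counting error. Nr3c2 stands highest at 2.0, and the widest intervals belong to genes with few reads such as Ppara, Nr1i3 and Gper1.

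**Figure D3:**
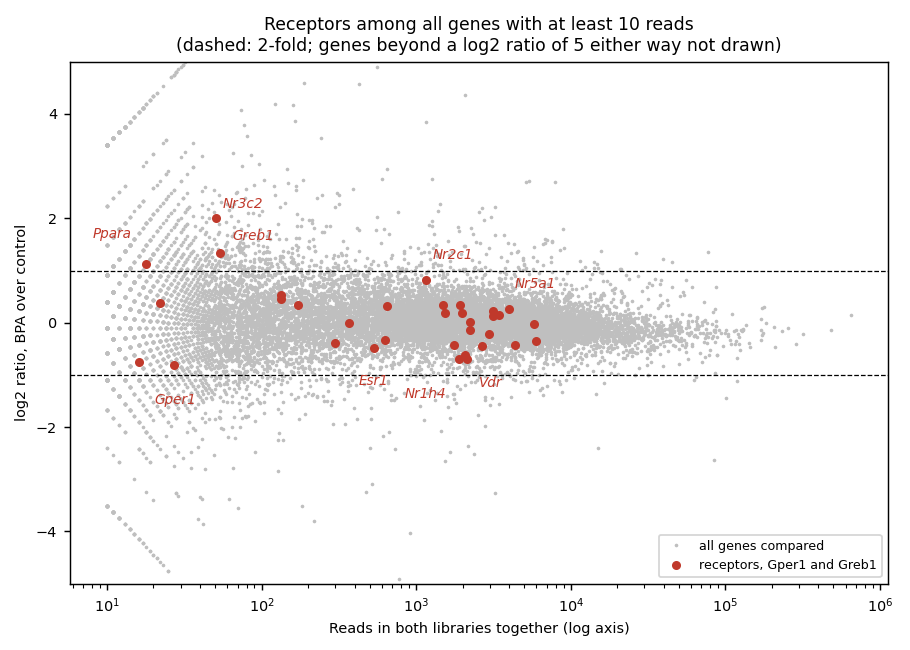
Log2 ratio of BPA over control against the summed reads of both libraries, on a log axis, for all genes compared (grey) and the 34 genes followed (red). Among the followed genes with at least 1000 reads, Nr2c1 at 0.83 stands highest and Nr1h4 at -0.70 and Vdr at -0.69 lowest.

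The steroid receptors of corticosteroids differed in level by a wide margin. Nr3c1, which encodes the glucocorticoid receptor, had 2972 reads with BPA and 2792 in the control, or 11.7 RPKM with BPA and 11.2 RPKM in the control, and a log2 ratio of -0.02 (-0.10 to 0.05). It held 98.4% of the summed level per length of both corticosteroid receptors with BPA (97.8% to 98.8%) and 99.6% in the control (99.3% to 99.8%), and the rest was Nr3c2. Of 16 targets of the glucocorticoid receptor, 14 were compared, 2 were at least 2-fold higher with BPA (14.3%) and 0 lower, and their median was -0.21. Each list count here and below stands against 6.88% of all genes at least 2-fold higher, 4.61% at least 2-fold lower and a median of 0.02 over all genes. Those shares cover all genes with at least 10 reads. Among genes with at least 1000 reads in both libraries together, a class that holds many list genes, they were 1.36% higher and 0.985% lower. In brackets here and below stand the log2 ratio and its interval. The genes higher were Ddit4, an inhibitor of mTORC1, with 2544 reads with BPA and 988 in the control (1.25, 1.15 to 1.36), and the metallothionein Mt2 with 1300 reads with BPA and 596 in the control (1.01, 0.87 to 1.16). Tsc22d3, the glucocorticoid-induced leucine zipper, had 1075 reads with BPA and 520 in the control (0.93, 0.78 to 1.09). Nfkbia, the inhibitor of NF-κB, had 729 reads with BPA and 1337 in the control (-0.99, -1.12 to -0.86). Members of this list thus stood on both sides of equality.

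Of 20 genes described as responsive to estrogen, 14 were compared, 1 was at least 2-fold higher (7.14%) and 0 were lower, and the median was 0.29. The gene higher was Stc2, a secreted glycoprotein, with 910 reads with BPA and 384 in the control and a log2 ratio of 1.13 (0.96 to 1.31). Igfbp4, which binds insulin-like growth factors, had 633 reads with BPA and 295 in the control (0.99, 0.79 to 1.19). On the other side of equality, the chemokine Cxcl12 had 22856 reads with BPA and 34295 in the control (-0.70, -0.72 to -0.67). The matricellular gene Wisp2 had 1405 reads with BPA and 2493 in the control (-0.94, -1.03 to -0.84).

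Retinoic acid receptors bind vitamin A acid and were the family with the highest summed level per length, 27.4 RPKM with BPA and 34.0 RPKM in the control. Rarg had 2714 reads with BPA and 3225 in the control, a log2 ratio of -0.36 (-0.43 to -0.29), and was first of 38 per length in both libraries, with an interval apart from the next gene. Rara had 1170 reads with BPA and 1483 in the control, or 8.10 RPKM with BPA and 10.5 RPKM in the control, and a log2 ratio of -0.45 (-0.57 to -0.34). Rarb, itself a target of retinoic acid, had 4 reads with BPA and 5 in the control, and its exons overlap those of Top2b on the opposite strand. Rarg and Rara were thus both lower with BPA, at nearly the same shares of the family: Rarg took 70.3% of the summed level per length with BPA and 69.0% in the control. Of 13 retinoic acid targets, 6 were compared, 1 was at least 2-fold higher and 1 lower (16.7% each), with a median of -0.06. The higher one, named after its value was seen, was the retinol transporter Stra6, with 8 reads with BPA and 3 in the control (1.08, -0.76 to 3.85). The lower one was the crosslinking enzyme Tgm2, with 1224 reads with BPA and 2366 in the control (-1.06, -1.16 to -0.96). Cyp26b1, which degrades retinoic acid, had 178 reads with BPA and 321 in the control (-0.96, -1.23 to -0.69). The reductase Dhrs3 had 93 reads with BPA and 88 in the control (-0.03, -0.47 to 0.41).

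The retinoid X receptors, the shared partners, were higher with BPA. Rxra had 1108 reads with BPA and 806 in the control, or 6.13 RPKM with BPA and 4.57 RPKM in the control, and a log2 ratio of 0.35 (0.22 to 0.48). Rxrb had 1875 reads with BPA and 1561 in the control, or 14.3 RPKM with BPA and 12.2 RPKM in the control, and a log2 ratio of 0.15 (0.06 to 0.25). Both intervals lay above equality, and Rxrb held 69.9% of the summed level of both with BPA (68.3% to 71.5%) and 72.7% in the control (71.0% to 74.4%).

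The thyroid hormone receptors are represented above all by Thra. It had 784 reads with BPA and 981 in the control, a log2 ratio of -0.43 (-0.57 to -0.30), and held 92.7% of the level of both thyroid receptors with BPA (91.1% to 94.1%) and 95.6% in the control (94.5% to 96.6%). Thrb had 99 reads with BPA and 72 in the control, and its log2 ratio of 0.34 (-0.10 to 0.81) included equality. The vitamin D receptor gene Vdr (chromosome 15, 97854425 to 97910630, minus strand) had 852 reads with BPA and 1274 in the control, or 4.56 RPKM with BPA (4.26 to 4.88) and 6.98 RPKM in the control (6.60 to 7.37), a log2 ratio of -0.69 (-0.82 to -0.57). In the authors' deposited table, Vdr had the lowest p-value of the 38 genes with a row, 0.0673, and 0 of the 38 were under 0.05. Of all 22127 genes, 147 (0.664%) were under 0.05 in the authors' deposited table, and 0 were after adjustment. Of 10 targets of thyroid hormone or vitamin D, 5 were compared, with 1 at least 2-fold higher, 1 lower (20% each) and a median of 0.10. Named after their values were seen, these were Cyp27b1, which activates vitamin D, with 25 reads with BPA and 6 in the control (1.79, 0.63 to 3.52), and Thrsp, a gene of fat synthesis, with 3 with BPA and 7 in the control (-1.09, -3.92 to 0.80). Malic enzyme, Me1, had 5496 reads with BPA and 4748 in the control (0.10, 0.04 to 0.16). The Krüppel-like factor Klf9, also on the glucocorticoid list, had 1376 reads with BPA and 952 in the control (0.42, 0.30 to 0.54).

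Among the peroxisome proliferator-activated receptors, which sense fatty acids, Pparg and Ppard held nearly all of the level. Pparg, the regulator of fat cell formation, had 1098 reads with BPA and 1121 in the control, or 11.2 RPKM with BPA and 11.7 RPKM in the control, and a log2 ratio of -0.14 (-0.26 to -0.02). Ppard, found in most tissues, had 1766 reads with BPA and 1399 in the control, or 7.11 RPKM with BPA and 5.76 RPKM in the control, and a log2 ratio of 0.22 (0.12 to 0.33). Per length Pparg was the higher of this pair in both libraries, and it took 60.9% of the family's level with BPA and 66.9% in the control. Ppard had more reads in both libraries, so this order depends on the exon lengths used, 2953 bases for Pparg and 7514 for Ppard. Of 22 PPAR targets, 16 were compared, 1 was at least 2-fold higher and 1 lower (6.25% each), and the median was -0.18. Angptl4, an inhibitor of lipoprotein lipase, had 1257 reads with BPA and 2331 in the control (-1.0, -1.10 to -0.90). The kinase Pdk4 had 1371 reads with BPA and 2094 in the control (-0.72, -0.82 to -0.62). The lipid droplet gene Plin2 had 2291 reads with BPA and 2952 in the control (-0.48, -0.56 to -0.40). The pantetheinase Vnn1 had 89 reads with BPA and 37 in the control (1.13, 0.59 to 1.75).

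Liver X receptors sense oxysterols and the farnesoid X receptor senses bile acids. Nr1h4, the gene of the farnesoid receptor FXR (chromosome 10, 89454234 to 89533585, minus strand), had 753 reads with BPA and 1129 in the control, or 9.89 RPKM with BPA (9.19 to 10.6) and 15.2 RPKM in the control (14.3 to 16.1). Its log2 ratio was -0.70 (-0.83 to -0.56), and it stood at rank 8 of 38 with BPA and at rank 3 in the control. Nr1h2, which encodes LXRβ, had 1098 reads with BPA and 891 in the control, or 9.90 RPKM with BPA and 8.22 RPKM in the control (0.19, 0.06 to 0.32). Nr1h3, which encodes LXRα, had 13 reads with BPA and 9 in the control (0.38, -0.92 to 1.83). Nr1h2 was thus nearly the whole of the LXR level, at 98.4% with BPA and 98.7% in the control. Of 13 LXR targets, 10 were compared, with 0 at least 2-fold higher or lower and a median of -0.09. The cholesterol transporter Abca1 had 34 reads with BPA and 38 in the control (-0.26, -0.98 to 0.43). Apolipoprotein E, Apoe, had 159 reads with BPA and 78 in the control (0.91, 0.52 to 1.33). The ubiquitin ligase Mylip had 127 reads with BPA and 86 in the control (0.45, 0.04 to 0.86). Srebf1, which drives fatty acid synthesis, had 2815 reads with BPA and 3185 in the control (-0.29, -0.36 to -0.22).

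The remaining sensor of foreign compounds with a row was Nr1i3, the constitutive androstane receptor, with 6 reads with BPA and 10 in the control (-0.75, -2.59 to 0.75), a gene whose exons overlap those of Tomm40l on the opposite strand. Of 15 targets of FXR, PXR and Nr1i3, 7 were compared, 2 were at least 2-fold higher (28.6%, against 6.88% of all genes) and 0 lower (against 4.61%), and their median was 0.53. Named after their values were seen, these were the bile salt pump Abcb11, with 12 reads with BPA and 0 in the control (3.65, from 1.36 with no upper limit), and the cytochrome Cyp3a13, with 13 with BPA and 5 in the control (1.12, -0.31 to 3.11). Both had few reads, and with at least 50 reads 4 genes of this list were compared and 0 passed 2-fold. Alas1, the first enzyme of heme synthesis, had 1339 reads with BPA and 857 in the control (0.53, 0.41 to 0.66). The drug efflux pumps Abcb1a and Abcb1b had ratios of -0.24 (-0.75 to 0.27) and -0.33 (-0.43 to -0.22). Por, the electron donor of cytochromes P450, had a ratio of -0.13 (-0.19 to -0.08).

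REV-ERB receptors repress clock genes and bind heme, and their partners of opposite sign, the RORs, activate them. Nr1d1, which encodes REV-ERBα (chromosome 11, 98767932 to 98775333, minus strand), had 861 reads with BPA and 1221 in the control, a log2 ratio of -0.61 (-0.74 to -0.49), whereas Nr1d2, which encodes REV-ERBβ, had 1691 reads with BPA and 1433 in the control (0.13, 0.02 to 0.23). Per length Nr1d1 took 47.2% of the level of both with BPA (45.2% to 49.3%) and 60.0% in the control (58.1% to 61.8%), so that their order per length was the opposite in the BPA library. By reads Nr1d2 was the higher in both libraries, so this change of order depends on the exon lengths used, 3077 bases for Nr1d1 and 5409 for Nr1d2. The 3′ ends of Thra and Nr1d1 overlap on opposite strands at chromosome 11, 98767932 to 98769006, and as strand use is not given, reads of that stretch cannot be told apart between these genes, both of which were lower with BPA. Rora had 80 reads with BPA and 54 in the control (0.45, -0.06 to 0.98) and Rorb had 190 reads with BPA and 177 in the control (-0.01, -0.31 to 0.29), and both intervals included equality. Of 17 clock genes, 16 were compared, 1 was at least 2-fold higher (6.25%) and 0 lower, with a median of 0.20. The repressor Ciart had 1187 reads with BPA and 444 in the control (1.31, 1.15 to 1.47) and Cry1, another repressor, had 1468 reads with BPA and 844 in the control (0.69, 0.56 to 0.81). Per1 had 1127 reads with BPA and 1710 in the control (-0.71, -0.82 to -0.60) and Bhlhe41 had 313 reads with BPA and 483 in the control (-0.74, -0.95 to -0.53), both also repressors of the clock.

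**Figure D4:**
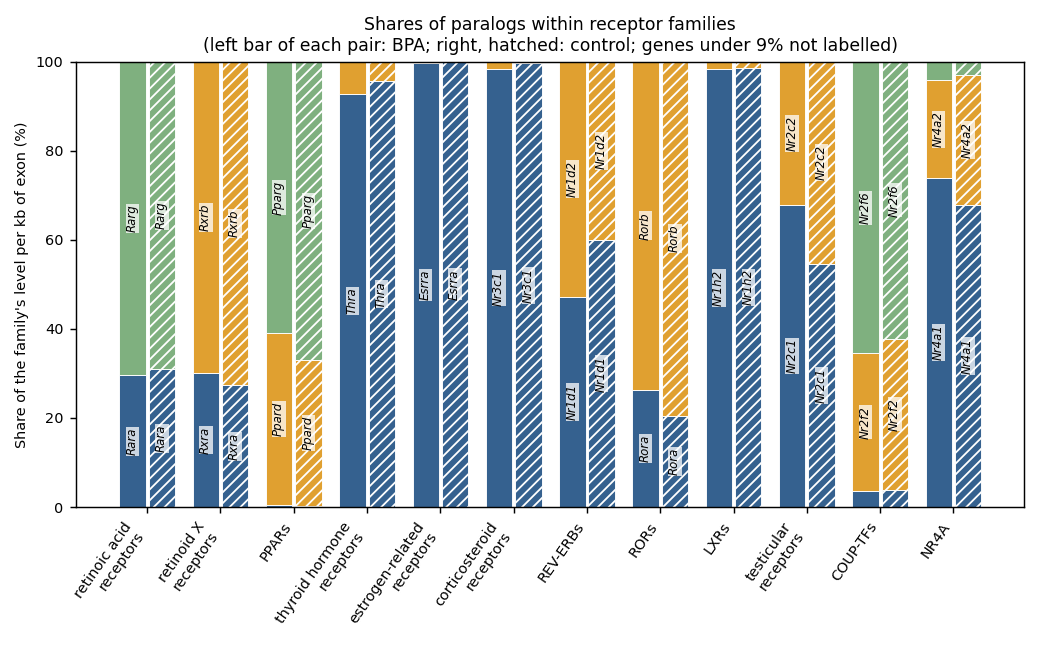
Share of each family's summed level per length (percent) held by each of its genes, with the BPA library beside the control library. The REV-ERB pair and the testicular receptors show the widest gaps, with Nr1d1 at 47.2% with BPA and 60.0% in the control and Nr2c1 at 67.9% with BPA and 54.7% in the control.

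Among the orphan receptors, Nr2c1 had the highest ratio. Nr2c1, the testicular receptor TR2 (chromosome 10, 94148023 to 94197211, plus strand), had 761 reads with BPA and 397 in the control, or 4.99 RPKM with BPA (4.65 to 5.36) and 2.67 RPKM in the control (2.41 to 2.94), and a log2 ratio of 0.83 (0.65 to 1.01). Its relative Nr2c2, TR4, had 1166 reads with BPA and 1067 in the control (0.02, -0.10 to 0.14), and its exons overlap those of Mrps25 on the opposite strand. Per length Nr2c1 took 67.9% of the level of both with BPA (65.9% to 69.9%) and 54.7% in the control (51.7% to 57.5%). Nr2c2 had more reads in both libraries, so which gene led depends on the exon lengths used, 4607 bases for Nr2c1 and 14935 for Nr2c2. All COUP-TF receptors, which shape organ and vessel development, were lower with BPA: Nr2f2 had 1946 reads with BPA and 2428 in the control (-0.43, -0.52 to -0.34). Nr2f6 had 1428 reads with BPA and 1539 in the control, or 14.5 RPKM with BPA and 16.0 RPKM in the control (-0.22, -0.32 to -0.11). Nr2f1 had 135 reads with BPA and 163 in the control (-0.38, -0.72 to -0.05). Exons of all 3 overlap those of a gene on the opposite strand, Ocel1 for Nr2f6 and noncoding genes for the other two.

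Nr5a1, or SF-1, the regulator of steroid-forming cells and of Sertoli cells, had 2242 reads with BPA and 1731 in the control, or 16.0 RPKM with BPA (15.3 to 16.7) and 12.6 RPKM in the control (12.0 to 13.2), and a log2 ratio of 0.26 (0.17 to 0.35). It was at rank 2 of 38 with BPA and rank 4 in the control, where its interval overlapped that of Nr1d1. Nr6a1, the germ cell nuclear factor and its neighbour on chromosome 2, had 373 reads with BPA and 276 in the control (0.32, 0.09 to 0.55). Nr0b2, or SHP, a receptor without a DNA-binding domain, had 3 reads with BPA and 0 in the control. Of 16 genes of SF-1 and steroid synthesis, 8 were compared, 1 was at least 2-fold higher and 1 lower (12.5% each), and the median was 0.11. Named after their values were seen, these were Hsd17b1, which makes estradiol, with 18 reads with BPA and 3 in the control (2.15, 0.70 to 4.88), and the inhibin subunit Inha, with 9 with BPA and 19 in the control (-1.10, -2.52 to 0.02). Star, which moves cholesterol into mitochondria, had 90 reads with BPA and 69 in the control (0.27, -0.20 to 0.75). Scarb1, which takes up cholesterol, had 3748 reads with BPA and 3152 in the control (0.14, 0.07 to 0.21). Srd5a1, which makes dihydrotestosterone, had 537 reads with BPA and 447 in the control (0.15, -0.03 to 0.34). The activin subunit Inhba had 1152 reads with BPA and 1635 in the control (-0.62, -0.73 to -0.51).

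NR4A receptors are immediate early genes that act without a known hormone. Nr4a1, or NUR77, had 848 reads with BPA and 688 in the control, or 7.31 RPKM with BPA and 6.07 RPKM in the control, and a log2 ratio of 0.19 (0.04 to 0.34). Nr4a3 had 82 reads with BPA and 52 in the control (0.54, 0.03 to 1.08). Nr4a2 had 291 reads with BPA and 341 in the control (-0.34, -0.57 to -0.11), so that the 3 did not share a direction. Of 14 other immediate early genes, all 14 were compared, 1 was at least 2-fold higher (7.14%) and 2 lower (14.3%), with a median of -0.47. The lower pair was Egr2 and Egr3, the second named after its value was seen, with 10 reads with BPA and 25 in the control (-1.35, -2.66 to -0.33). Atf3, a stress-induced factor, had 1789 reads with BPA and 471 in the control (1.81, 1.67 to 1.96). Egr1 had 1943 reads with BPA and 3405 in the control (-0.92, -1.0 to -0.84). Egr2 had 25 reads with BPA and 79 in the control (-1.73, -2.48 to -1.11), and the serum response factor Srf had 2815 reads with BPA and 4137 in the control (-0.67, -0.74 to -0.60).

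Coregulators, which link a receptor to chromatin enzymes, lay within 2-fold in 25 of 26 cases. All 26 listed were compared, 0 were at least 2-fold higher and 1 was lower (3.85%), with a median of -0.01. Pprc1, a coactivator of growth-related mitochondrial genes, had 5410 reads with BPA and 3660 in the control (0.45, 0.39 to 0.51). The coactivator Ncoa1 had 514 reads with BPA and 368 in the control (0.37, 0.17 to 0.57). The arginine methyltransferase Carm1 had 3165 reads with BPA and 3790 in the control (-0.37, -0.44 to -0.30). Prmt1, another, had 3866 reads with BPA and 4685 in the control (-0.39, -0.45 to -0.33). The one at least 2-fold lower was Ppargc1b, a coactivator of ERRα, with 6 reads with BPA and 22 in the control (-1.82, -3.58 to -0.64), named after its value was seen. Of 13 receptor chaperones, all 13 were compared, 0 passed 2-fold and 11 were below 0, against 48.1% of all genes, with a median of -0.20. Hspa8, the constitutive HSP70, had 78813 reads with BPA and 91494 in the control (-0.33, -0.34 to -0.31) and the cyclophilin Ppid had 5626 reads with BPA and 7596 in the control (-0.54, -0.59 to -0.49). The inducible HSP90 gene Hsp90aa1 had 49805 reads with BPA and 54881 in the control (-0.25, -0.27 to -0.23) and the immunophilin Fkbp4 had 15952 reads with BPA and 17813 in the control (-0.27, -0.30 to -0.24). The dioxin receptor Ahr, outside the 48, had 752 reads with BPA and 670 in the control (0.05, -0.10 to 0.21). Its partner Arnt had 2294 reads with BPA and 2289 in the control (-0.11, -0.19 to -0.02). The plot of lists sets these medians beside that of all genes.

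**Figure D5:**
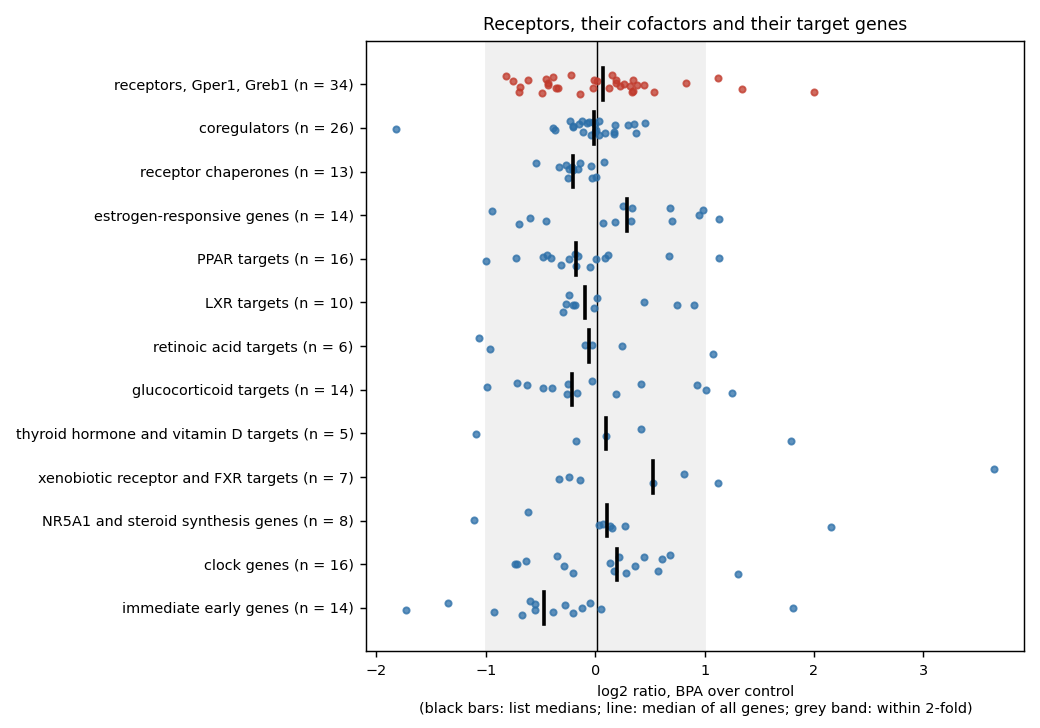
Log2 ratio of BPA over control for the genes followed (red) and for each list of cofactors, targets and related genes (blue), with the median of each list as a black bar and the median of all genes as a line. The list medians run between -0.47 for immediate early genes and 0.53 for targets of xenobiotic receptors and FXR, and every list spans both sides of 0.

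The circRNA table, which the choice of genes did not use, held 12 circRNAs of 6 of these genes among 9158 circRNAs from 3954 hosts. None reached 10 back-splice events in both libraries together, so none was compared. Summed over the 6 hosts there were 15 events with BPA and 10 in the control, or 0.0853% of the library's events with BPA (0.0477% to 0.141%, exact binomial) and 0.0775% in the control (0.0372% to 0.142%), and the log2 ratio of 0.29 (-0.94 to 1.63) included equality. Nr1h4 gave 6 events with BPA and 4 in the control, Nr2c2 gave 6 with BPA and 1 in the control, and Pparg 3 with BPA and 0 in the control. Rara gave 0 with BPA and 3 in the control, and Rarg and Thrb each 0 with BPA and 1 in the control. Of the 12 circles, 3 were seen in both libraries. All 12 began and ended at annotated exon ends with AG before and GT after them in the genome, the letters of splice sites. The 30 bases across the back-splice are shown for 1 circle of each host, with ends in coding exons where there was such a circle, because this junction is the part of the RNA that the linear mRNA lacks: lower case is the end of the last exon and capitals the start of the first, read from GRCm38 on the gene's strand.
Nr1h4, exons 3 to 7, chr10:89473752-89483524, minus strand: gaattcgaaagagtgGTTTCTTCCGAAGAA
Nr2c2, exons 3 to 5, chr6:92139780-92152417, plus strand: gcgacaaagcctctgGTACCACGTACACAG
Pparg, exons 2 to 3, chr6:115439840-115441661, plus strand: tgtgaaggatgcaagAAATTACCATGGTTG
Rara, exon 2, chr11:98950245-98950795, plus strand: caccgtccccagccaCACCACAGGACATGC
Rarg, exons 6 to 9, chr15:102238805-102240288, minus strand: gcatcagcactaaggCTGTAAGGAACGATC
Thrb, exon 4, chr14:17963061-17963321, plus strand: agaagaaatgtaaagAAAATGGCCTTCCAG
Among these the Nr1h4 circle had the most events, 4 with BPA and 3 in the control. The Rara circle is a lone exon of 551 bases with 0 events with BPA and 3 in the control, and the Thrb circle, a lone exon of 261 bases, carried a circBase number in the authors' deposited table.

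An intron of Nr6a1 holds the miRNA genes Mir181a-2 and Mir181b-2 on the opposite strand, at chromosome 2, 38852741 to 38852763 and 38853845 to 38853868 for their 5p mature forms. The same mature forms also come from Mir181a-1 and Mir181b-1 on chromosome 1, so their counts cannot be assigned to the Nr6a1 locus. The 3p forms, from the other arm, differ between these loci. Those of chromosome 1 had counts: miR-181a-1-3p had 194 reads with BPA and 82 in the control, and miR-181b-1-3p had 7 with BPA and 5 in the control. Those of the Nr6a1 locus, miR-181a-2-3p and miR-181b-2-3p, had no count, so no read was particular to that locus. The 5p forms are shown because they are the miRNAs with counts that lie within a gene of the set, with the seed in capitals (RefSeq, GRCm38.p6).
miR-181a-5p: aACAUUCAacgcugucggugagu
miR-181b-5p: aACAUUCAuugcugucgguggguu
Both share the seed ACAUUCA. The miRNA libraries held 3452574 reads with BPA and 3927981 in the control, and miR-181a-5p had 852 reads with BPA and 271 in the control, and miR-181b-5p had 622 with BPA and 229 in the control. Scaled by the trimmed mean of M-values (TMM), the log2 ratios were 0.15 (-0.04 to 0.36) and -0.06 (-0.28 to 0.17), within counting error of equality, a scaling under which 12.3% of all 464 miRNAs compared passed 2-fold upward and 15.7% downward. Scaled by library total, the ratios were 1.84 and 1.63, a scaling under which 78.0% passed 2-fold upward and 2.8% downward, so that the scaling decides on which side of 2-fold they lie.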

How the data were processed

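Per the submitters' processing notes, reads were processed with STAR, StringTie (both with no version) and Bowtie 1.1.0, on the builds GRCm38 and mm10. Not given in the sources used here were the read counter, its use of strand, the circRNA caller and the annotation release. The authors deposited mRNA and circRNA values on a log2 scale. Undoing the log2 and taking off 1 gave whole multiples of a step (0.962066 with BPA, 1.03943 in the control; tolerance 0.001) for 100% of the 22127 genes, so whole reads were recovered. In circRNA the step was 2 and was read as 1 event; its origin is not given, so circRNA intervals are tentative. The deposited miRNA values were read counts; TPM columns deposited beside them were not used. The authors' deposited p-values came from 1 library against 1 and are quoted once.

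The design had expected mRNA and circRNA counts. Each mRNA ratio used the authors' scaled values plus a pseudocount of 1, for genes with at least 10 reads in both libraries together, and so understates differences of low genes. The circRNA and miRNA ratios had 0.5 added and TMM scaling (edgeR 4.0.16). Intervals are exact conditional binomial (SciPy 1.17.1), and cover counting error only, since PCR reads are not independent molecules; they also leave out the scaling's error. Limits for 0 use 3 reads. Levels per length used the length of all annotated exons of a gene joined together (GENCODE M21), to which 22036 of 22127 IDs matched. The transcripts in use can be shorter, so orders and shares between genes depend on this length, and their intervals leave that out. The ratio and interval code was tested on simulated data. All 48 genes were named by rule, and from each of 13 lists up to 4 genes with the largest absolute ratio and at least 50 reads. Some genes of the lists, and 1 list as a whole, are not reported here. The 48 genes and the lists were chosen with earlier results of these data known. Alternatives were other pseudocounts, scalings, filters and a correction for GC content.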

Additional observations from a re-analysis of the deposited data

How the results depend on the processing

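With no filter on reads, 38 genes were compared and 6 were at least 2-fold higher with BPA, since Esr2, Esrrb and Nr0b2 had 0 reads in the control. The share of all genes past 2-fold was not taken without the filter, so that count has nothing to stand against. Under the other settings tried (pseudocounts of 0.5 and 5, TMM, library total, at least 50 reads, GC trend removed) 2 or 3 were at least 2-fold higher and 0 genes were at least 2-fold lower. The median log2 ratio of the genes followed, 0.07, became 0.15 by library total and 0.14 with no filter. It became 0.19 without the genes whose exons overlap a gene of at least 10 reads. Scaling by library total moved the median of all genes by 0.08 and gave the near-equal genes Nr3c1 and Rorb the other sign, with Nr3c1 at 0.06. Rorb also turned with the GC trend removed. By library total, 2 genes left their counting intervals, Nr3c1 and Rarg, the latter at -0.28 in place of -0.36. The counts of intervals above and below equality were taken on the authors' scaling only. Scaling by library total gave miR-181a-5p 1.84 and miR-181b-5p 1.63, since it moved the median of all miRNAs by 1.68. With at least 50 reads, 1 immediate early gene and 0 coregulators were 2-fold lower, and 0 genes passed 2-fold in either direction on the lists of thyroid hormone and vitamin D, xenobiotic and FXR, and SF-1 targets, or upward on that of retinoic acid. Of all genes with at least 50 reads, 3.25% were 2-fold higher and 2.05% lower. Without the genes whose exons overlap a gene of at least 10 reads, a choice made after seeing the data, 3 of 26 were 2-fold higher and 0 lower. Without Greb1 and Gper1, 2 of 32 were 2-fold higher and 0 lower. Of all genes with at least 10 reads, 6.88% were 2-fold higher and 4.61% lower. No replicate could be left out, since each group had 1 library. No paired analysis was possible because each group had 1 library and no test was made. The depth leaves Esr2, Esrrb, Rarb and Nr0b2, all under 10 reads, without a usable ratio.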
